A study of Homo sapiens with 9 samples.

Results

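TC/AEW is a line derived from the Ewing sarcoma cell line TC-71 by 6 months of growth in rising concentrations of NVP-AEW541, up to 5 µM. NVP-AEW541 is a small molecule that blocks the kinase of the insulin-like growth factor 1 receptor (IGF-1R). The comparison used the 2 arrays labelled TC/AEW and the 3 arrays labelled TC-71, which is 5 of the 9 arrays in the study, and covered 14181 genes with a usable probe set. The study's other 4 arrays held 2 lines selected from TC-71 with antibodies to IGF-1R, namely TC/AVE, grown in AVE1642 that reached 10 µg/ml, and TC/CP, grown in figitumumab, with 2 arrays each. The labels give 6 months for these selections too. All cells grew in Iscove medium with 10% serum, and the labels record no resistance to drugs against IGF-1R in TC-71. Transcripts were read on Affymetrix HG-U133 Plus 2 arrays, and levels are the deposited log2 values, so a difference of 1 is a 2-fold difference.

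TC/AEW is 1 selected line with no biological replicate: its 2 arrays are technical replicates, and they were averaged into 1 sample. The labels name no TC-71 culture carried alongside through the selection, so selection by the drug and time in culture cannot be told apart. They also do not say whether TC/AEW was grown with or without NVP-AEW541 before harvest. Nothing in them says that the 3 TC-71 samples came from separate cultures, so the p-values reflect how far these samples differ, which may be technical. The array file names carry a year. One year is common to TC-71 sample 2, TC/AEW and TC/AVE. TC-71 sample 3 shares its year with TC/CP, and TC-71 sample 1 stands alone. The difference from TC-71 sample 2 is therefore the only within-year value for TC/AEW. For some genes and lists it is given beside the difference from the mean of the 3 TC-71 samples.

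Ewing sarcoma is driven by a fusion of EWSR1 with an ETS gene, most often FLI1, and the fusion protein both activates and represses large sets of genes. These tumours depend on signalling through IGF-1R. The receptor, once bound by IGF1 or IGF2, phosphorylates the adaptors IRS1 and IRS2 and feeds the PI3K-AKT-mTOR and RAS-ERK cascades, and the related insulin receptor (INSR) can feed the same cascades. A kinase inhibitor leaves the receptor on the cell surface, whereas antibodies usually cause it to be internalised.

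The arrays had medians between 5.39 and 5.45. The 2 TC/AEW arrays correlated at 0.996 over genes (not independent replicates), and 0 genes lay 2-fold apart between them. The TC-71 samples lay further apart: 1005 genes differed at least 2-fold between samples 1 and 2, 376 between samples 1 and 3, and 242 between samples 2 and 3. TC/AEW lay at least 2-fold from sample 1 in 1054 genes, from sample 2 in 276 and from sample 3 in 402. The counts from TC/AEW and those between TC-71 samples were of the same order. Of 7 Ewing markers measured, 4 were higher and 3 lower in TC/AEW. CD99 and STEAP1 were bright in both, whereas KCNE3 and LIPI, given with their groups, were 2-fold lower without overlap. CD99 read 12.83, 12.82 and 12.83 in TC-71 and 12.92 and 12.98 in TC/AEW. Of the markers of blood cells, PTPRC, CD14 and LYZ read under 5 on all 5 arrays, as did the epithelial markers CDH1 and EPCAM and the endothelial markers CDH5 and KDR. Other markers of these types read above 5 on some or all of the arrays. PECAM1 lay between 6.06 and 6.39, and TEK and VWF between 4.88 and 5.66. KRT8 lay between 5.31 and 6.28, and KRT18 read 6.76, 6.69 and 7.02 in TC-71 and 5.99 and 5.76 in TC/AEW. Both keratins were read by _x_at probe sets, which may pick up related transcripts.

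In limma's moderated test, 0 of 14181 genes (0%) passed an adjusted p of 0.05 between TC/AEW and TC-71, and the lowest adjusted p was 0.709. The count at an unadjusted p under 0.05 was 501 (3.53%). With 1 sample of TC/AEW, the fit borrowed the spread of the TC-71 samples. Genes were therefore described by size and by overlap: a gene was counted where the TC/AEW mean lay at least 2-fold from the TC-71 mean and both TC/AEW arrays lay beyond all 3 TC-71 arrays. By this rule 232 genes were higher (1.64%) and 69 were lower (0.487%). Non-overlap alone held for 2176 genes above TC-71 (15.3%) and 2027 below (14.3%), so non-overlap by itself is common in these arrays. In bulk RNA, a lower level in every cell and fewer expressing cells cannot be told apart.

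The reference decided the balance of higher to lower genes. Against the TC-71 mean, 77.1% of the counted genes were higher in TC/AEW. Against TC-71 sample 2 alone, 149 genes were at least 2-fold higher (1.05%) and 127 at least 2-fold lower (0.896%), so that 54% were higher. Of the 232 higher and 69 lower genes, 118 and 41 were also at least 2-fold from sample 2 in the same direction. Without sample 2 the counts became 421 higher and 127 lower. With TC/AEW array 1 alone 104 genes were lower in place of 69.

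**Figure D1:**
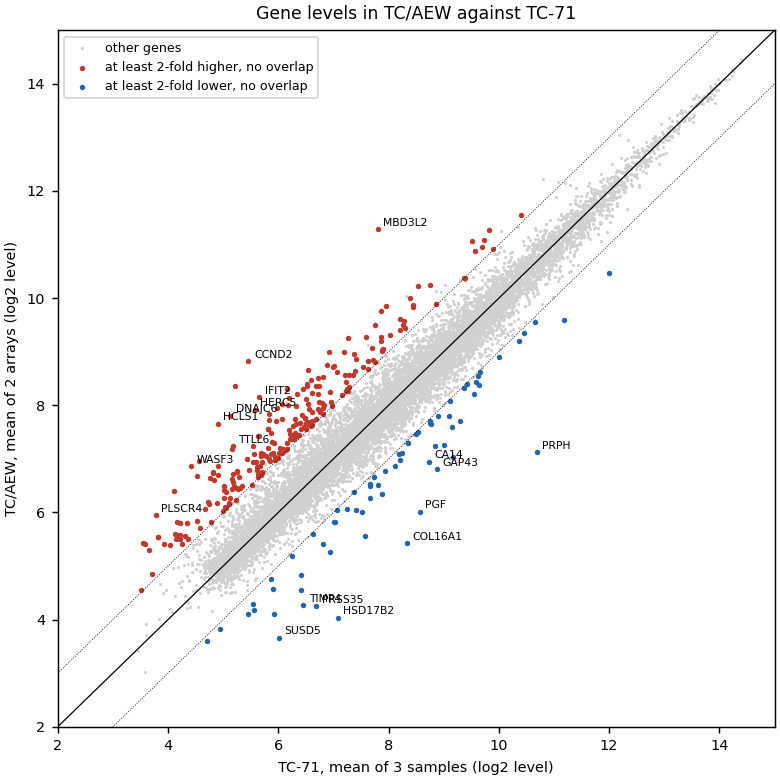
The mean log2 level of each of 14181 genes in TC/AEW (2 arrays, vertical axis) is plotted against its mean in TC-71 (3 samples, horizontal axis), with dotted lines at a 2-fold difference and coloured points for genes that were also not overlapping. The 232 red points (higher) and 69 blue points (lower) are a small part of the cloud, with CCND2, MBD3L2 and PRPH furthest from the diagonal.

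The target of the drug was examined first. IGF1R stood at 9.25, 9.40 and 9.26 in TC-71 samples 1 to 3 and at 9.09 and 9.27 on the TC/AEW arrays, and the groups overlapped. Its difference of -0.13 ± 0.21 (moderated SE) had an adjusted p of 1.00 in limma. INSR, which can form hybrid receptors with IGF-1R, read 5.76, 6.47 and 6.29 in TC-71 and 6.54 and 6.78 in TC/AEW. Its TC/AEW arrays lay just above all TC-71 arrays, by less than the spread among the TC-71 samples. The ligand gene IGF1 read 6.32, 6.70 and 6.61 in TC-71 and 6.98 and 6.95 in TC/AEW, a difference of 0.42 ± 0.25 that was also small against sample 2 (0.26). The other IGF1 probe sets differed by -0.12, 0.31 and 0.42 from the TC-71 mean, with overlap in the first and the second of these. IGF2R, which clears IGF2, and the binding protein gene IGFBP3 both overlapped with TC-71.

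The adaptors directly below the receptor showed little difference. IRS2 read 12.08, 11.92 and 12.05 in TC-71 and 11.85 and 11.86 in TC/AEW, and the difference for IRS1 was 0.37 ± 0.50. Of 18 receptor adaptors measured, 2 were at least 2-fold higher and not overlapping (1.64% of all genes) and 0 were 2-fold lower (0.487%). DOK6, a docking protein of receptor kinases, read 5.95, 6.46 and 5.84 in TC-71 and 7.12 and 7.26 in TC/AEW. GRB14, an inhibitor of insulin receptor signalling, went from 3.63, 3.58 and 3.32 to 4.55 on both arrays, all near background. Levels under 5, the limit used to filter probe sets, are treated here as near background, so differences from them are lower bounds and carry no fold. Background may reach higher, because the globin gene HBB read between 5.74 and 6.13 on these 5 arrays. Folds taken from levels in that range or under it, as for CCND2, IFIT2 and HERC5 below, may therefore also be lower bounds.

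Among 24 PI3K, AKT and mTOR genes, 13 were higher and 11 lower. DEPTOR was the only one that was 2-fold higher and not overlapping (1.64% of all genes). DEPTOR binds mTOR and inhibits its kinase. It read 5.38, 6.59 and 6.51 in TC-71 and 8.20 and 8.42 in TC/AEW, 4.44-fold above the TC-71 mean (difference 2.15 ± 0.53, and 1.72 from sample 2). PIK3CD, a catalytic PI3K subunit, was next with 6.07, 6.26 and 6.13 in TC-71 against 7.09 and 7.12 in TC/AEW, 1.94-fold higher. The only other kept probe set of PIK3CD did not point the same way. PIK3CB, another catalytic subunit, was 1.60-fold higher, whereas AKT1 differed by -0.40 ± 0.34 and overlapped. None of the 15 genes of the RAS and ERK cascade reached 2-fold. Of 34 other receptor tyrosine kinases, 12 were higher and 22 lower, and 0 reached the 2-fold, non-overlapping rule. PDGFRB came closest, at 7.86, 7.55 and 7.49 in TC-71 and 6.58 and 6.70 in TC/AEW, followed by FGFR4, which was 1.73-fold higher. Of 34 growth factor genes, FGF13 alone passed (1.64% of all genes passed above TC-71). It read 6.45, 7.73 and 7.93 in TC-71, with a mean of 8.96 over the TC/AEW arrays, both above TC-71. FGF13 belongs to the intracellular FGF family and is not secreted as a receptor ligand.

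The genes standing furthest apart from TC-71 were ranked by the gap between the nearest TC/AEW and TC-71 arrays. The 20 largest gaps above TC-71 held differences of 1.70 to 3.48 and gaps of 1.45 to 2.84. The 20 largest gaps below held differences of 1.38 to 3.56 in size and gaps of 1.03 to 2.77. All 20 of each had to be at least 2-fold from TC-71 sample 2, since every gap exceeded 1 beyond all 3 TC-71 samples. The smallest differences from sample 2 were 1.53 and 1.09 in size. The 2 TC/AEW arrays agreed within 0.589 for these genes. Of the other probe sets that read them, 7 of 7 for the higher and 10 of 10 for the lower genes pointed the same way, of which 4 and 4 reached the 2-fold, non-overlapping rule. Some of them showed almost no difference, such as 0.0008 in EXPH5, -0.03 in SH3TC1 and -0.08 in TRIM36. Adjusted p-values in limma lay between 0.709 and 1.00 for these genes, so none passed.

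CCND2 headed this ranking. It encodes cyclin D2, which activates CDK4 and CDK6 at entry into the cell cycle. Its level was 4.97, 5.96 and 5.45 in TC-71 and 8.80 and 8.84 in TC/AEW, 10.3-fold above the TC-71 mean (3.36 ± 0.41, and 2.87 from sample 2). TC/AVE and TC/CP had means of 4.72 and 4.95, at or below the lowest TC-71 sample. The other CCND2 probe sets were higher in TC/AEW by 1.56 and 0.32. The other D-type cyclins showed no rise of like size. CCND1 read 11.76, 10.99 and 11.88 in TC-71 and 11.42 and 11.38 in TC/AEW. Another CCND1 probe set read 11.20, 10.69 and 10.77 against 11.25 and 11.28, higher by 0.38 without overlap. CCND3 read 9.53, 9.43 and 9.72 against 9.69 and 9.73. CDK4 was lower, at 12.21, 12.04 and 12.18 against 11.63 and 11.80, and the CDK inhibitor gene CDKN1A was 1.25-fold lower. MKI67, a marker of cycling cells, overlapped between the groups. Of 38 replication and mitosis genes, 14 were higher and 24 lower; the median was -0.07, with 0 at the 2-fold, non-overlapping rule.

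HCLS1 and WASF3, both concerned with branched actin, were the third and the fourth in this ranking. HCLS1 is the haematopoietic relative of cortactin and binds the Arp2/3 complex. It read 4.65, 5.11 and 4.94 in TC-71 and 7.63 and 7.68 in TC/AEW, a difference of at least 2.76 ± 0.26. WASF3, a WAVE protein that relays RAC to Arp2/3, read 4.12, 4.57 and 4.57 in TC-71 and 6.77 and 6.96 in TC/AEW, at least 2.44 ± 0.28 higher. In TC/AVE and TC/CP both genes stayed near background, at 4.22 and 5.00 for HCLS1 and at 4.05 and 4.40 for WASF3. CYFIP2, a subunit of the WAVE complex, was the third of 27 genes of this list to pass, at 6.75, 7.28 and 7.44 against 8.11 and 8.27. Of all genes, 1.64% passed above TC-71. WASF3 read under 5 on all arrays except those of TC/AEW, so it passed the filter only through them. The count therefore describes the genes that passed the filter and not the whole list. The list as a whole was mixed, with 17 higher, 10 lower and a median of 0.10. CYFIP1, the paralog of CYFIP2, was lower at 10.15 and 10.28 against 10.37, 10.70 and 10.45. NCKAP1L, another WAVE complex subunit, read 11.47, 11.48 and 9.03 in TC-71 and 11.27 and 11.35 in TC/AEW. For NCKAP1L, TC-71 sample 3 and TC/CP (9.22) stood apart from the other samples, so its difference of 0.65 from the TC-71 mean was -0.17 from sample 2.

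MBD3L2, the second in the ranking, had the largest difference above the TC-71 mean, 3.48 ± 0.51. It belongs to a family of near-identical copies related to the methyl-CpG-binding protein MBD3, and the probe set may read several of them. The level was 7.32, 8.53 and 7.55 in TC-71 and 11.18 and 11.38 in TC/AEW, with means of 8.68 and 10.12 in TC/AVE and TC/CP. PLSCR4, a phospholipid scramblase, read 3.53, 3.95 and 3.87 in TC-71 and 5.96 and 5.93 in TC/AEW, and stood higher still in TC/AVE (6.61). DNAJC6 encodes auxilin, which uncoats clathrin vesicles. It read 4.19, 5.33 and 5.86 in TC-71 and 7.82 and 7.79 in TC/AEW, against 7.56 in TC/CP. CD9, a tetraspanin of the cell surface, went from 4.23, 4.82 and 4.51 to 6.49 and 6.88, while TC/AVE and TC/CP stayed at 4.87 and 4.72. TTLL6, a tubulin polyglutamylase, read 5.42, 5.00 and 5.11 in TC-71 and 7.21 and 7.26 in TC/AEW, and was near the TC-71 level in the antibody-selected lines. LUM, the matrix proteoglycan lumican, was 8.49 and 8.24 in TC/AEW. Its TC-71 samples ranged from 3.55 to 6.51, and this wide spread gave an SE of 1.12 on a difference of 3.14. The remaining genes of the 20 were ZNF667-AS1, CMTM8, PRSS21, PLPP2, EXPH5 and LINC02381, with differences between 1.70 and 2.40, together with IFIT2, HERC5, IFIH1, HLA-C and DEPTOR, which are described with their groups.

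PRPH was the furthest below TC-71. It encodes peripherin, an intermediate filament of neurons. The level was 11.40, 10.75 and 9.90 in TC-71 and 7.12 on both TC/AEW arrays, 11.8-fold below the TC-71 mean (-3.56 ± 0.59, and -3.63 from sample 2). TC/AVE and TC/CP were as low, at 6.61 and 7.01. GAP43, a growth cone protein of neurons, read 8.54, 9.28 and 8.82 in TC-71 and 6.79 and 6.83 in TC/AEW, 4.20-fold lower. Unlike PRPH, GAP43 stood at 8.33 in TC/AVE and at 9.41 in TC/CP. The list of 22 neuronal and growth cone genes was otherwise mixed, with 14 higher and 8 lower. SCG2, a secretory granule protein, was 3.06-fold higher, from 7.57, 9.22 and 8.38 to 9.91 and 10.10, and higher still in TC/CP (11.63).

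Of the other genes with the 20 largest gaps below TC-71, COL16A1, PGF and TIMP4 encode secreted proteins. COL16A1, a fibril-associated collagen, read 8.88, 7.81 and 8.32 in TC-71 and 5.13 and 5.72 in TC/AEW, 7.53-fold lower, with like levels in TC/AVE (5.26) and TC/CP (5.35). PGF, the placenta growth factor that binds VEGF receptor 1, went from 9.45, 7.95 and 8.30 to a TC/AEW mean of 6.01, while both other lines stood in between, at 7.24 and 7.18. A brighter _x_at probe set for PGF overlapped, with 9.67, 9.13 and 9.34 in TC-71 and 9.33 and 9.05 in TC/AEW, so the large difference rests on 1 of 2 probe sets. TIMP4, an inhibitor of matrix metalloproteinases, read 6.38, 6.94 and 6.03 in TC-71 and 4.32 and 4.22 in TC/AEW. It stood at 5.82 in both antibody-selected lines. SUSD5 and PRSS35 were at background in TC/AEW and TC/CP but near the TC-71 level in TC/AVE. SUSD5 read 6.12, 5.86 and 6.06 in TC-71, 3.74 and 3.59 in TC/AEW, 5.76 in TC/AVE and 3.73 in TC/CP.

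Among collagens as a list the direction was even, with 10 of 20 higher. The basement membrane chain gene COL4A2 was 2.21-fold higher, at 5.48, 5.11 and 5.33 in TC-71 and 6.33 and 6.57 in TC/AEW, and its partner COL4A1 was close behind at 6.03 and 5.93 on the TC/AEW arrays. COL3A1, a fibrillar collagen used here among the fibroblast markers, was separated by little, with TC-71 sample 2 at 7.97 and TC/AEW at 8.15 and 8.47. The 6 fibroblast markers measured had a median of 0.57 from the TC-71 mean and 0.26 from sample 2, with COL3A1, LUM and DCN on the higher side and PDGFRB on the lower. Their part in the matrix results was not tested.

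The other low genes of this ranking had varied roles. HSD17B2, which inactivates estradiol and testosterone, read 6.84, 6.88 and 7.52 in TC-71 and 3.96 and 4.11 in TC/AEW, a difference of -3.05 ± 0.34, which bounds its size from below. It was near background in TC/AVE and TC/CP too. CA14, a membrane carbonic anhydrase, went from 8.87, 8.71 and 8.59 to 7.01 and 6.87, 3.44-fold lower. APOBEC3B, a cytidine deaminase of single-stranded DNA, read 5.49, 6.21 and 6.07 in TC-71 and 4.11 and 4.10 in TC/AEW, near background. KCNE3, a potassium channel subunit known as a marker of Ewing sarcoma, read 12.42, 11.56 and 12.02 in TC-71 and 10.43 and 10.51 in TC/AEW. It was 2.89-fold lower than the TC-71 mean and stood at 10.63 and 10.94 in the other lines. The transcription factor gene ZNF423 was 3.00-fold lower, and the WNT regulator DACT2 was 2.82-fold lower with almost no spread in TC-71 (7.50, 7.44 and 7.60 against 6.10 and 5.93). STEAP1B, at 4.69 and 4.96 in TC/AEW, has a near-identical relative in STEAP1 and is uncertain.

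**Figure D2:**
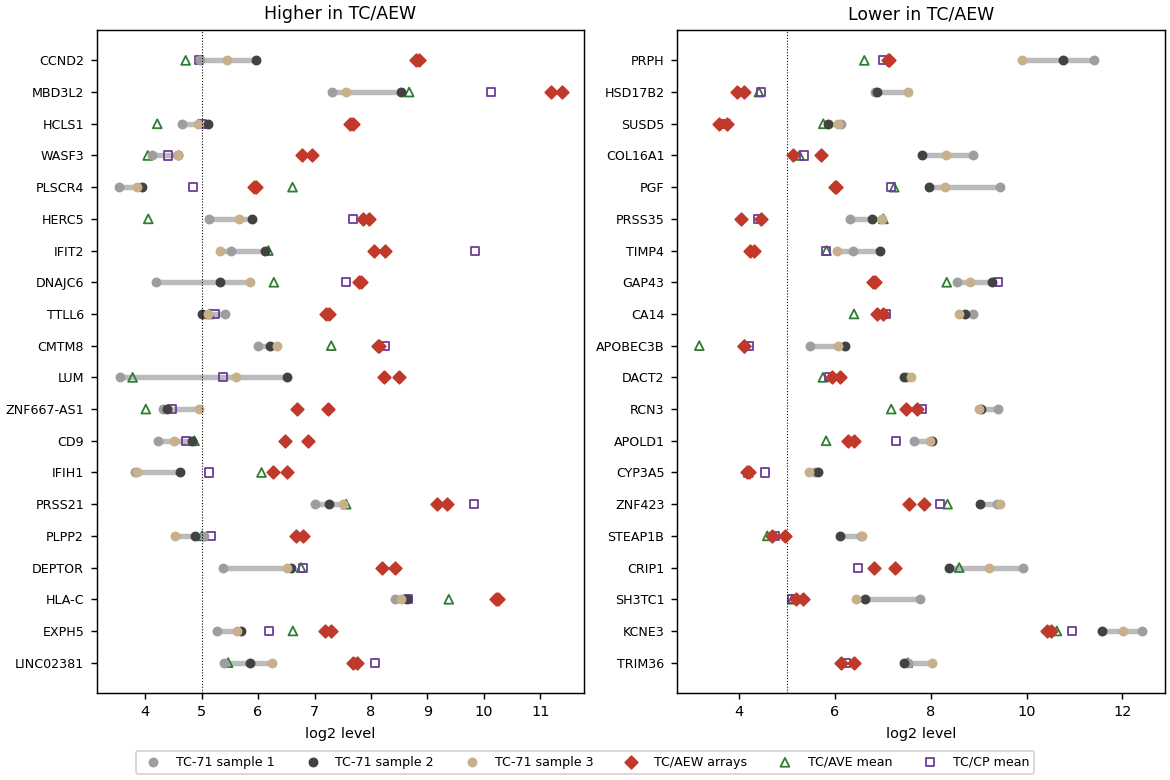
Log2 levels of the 20 genes with the largest gap above TC-71 (left) and the 20 with the largest gap below (right). Circles are the 3 TC-71 samples joined by a grey bar, red diamonds the 2 TC/AEW arrays, open triangles and squares the means of TC/AVE and TC/CP, and the dotted line marks 5, under which levels are near background. In CCND2, HCLS1, WASF3 and CD9 the open symbols lie near or below TC-71, whereas in PRPH, HSD17B2 and COL16A1 they lie with TC/AEW.

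Interferon-response genes had the highest median among the lists of at least 9 tested genes; the 6 fibroblast markers, with 0.57, stood higher. These genes are induced by interferons through a DNA element called the interferon-stimulated response element, and many encode antiviral proteins. Of 50 listed genes, 29 passed the filter on low values. Of the 29, 25 had a higher mean in TC/AEW, 19 lay above all TC-71 arrays without overlap (15.3% of all genes did), and 9 were at least 2-fold higher (1.64% of all genes), against 0 lower. The median difference was 0.52 from the TC-71 mean and 0.48 from sample 2, and the 9 became 8, 10 and 9 without TC-71 sample 1, 2 or 3. Under all alternatives in processing the median ranged from 0.26 to 0.72. A gene near background in TC-71, such as IFIH1, passed the filter through the lines where it was high, so these counts describe the genes that passed and not the whole list. The list was drawn up with earlier results of these data known.

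The RNA sensor and effector genes showed this on each array. IFIT2, whose product binds viral RNA, read 5.52, 6.12 and 5.33 in TC-71 and 8.06 and 8.24 in TC/AEW, 5.63-fold higher (2.49 ± 0.36, and 2.03 from sample 2). IFIT1, of the same family, read 5.99, 7.32 and 6.30 in TC-71 and 8.57 and 8.75 in TC/AEW. IFIT3 read 5.18, 6.49 and 5.81 against 7.73 and 7.95. In all 3 IFIT genes TC-71 sample 2 was the highest TC-71 sample, and TC/AEW lay at least 2-fold above it. HERC5, the ligase that attaches ISG15 to proteins, read 5.13, 5.90 and 5.67 in TC-71 and 7.86 and 7.96 in TC/AEW, 5.08-fold higher. ISG15 itself read 9.53, 9.91 and 9.28 against 10.73 and 11.02. IFIH1, the sensor MDA5 of long double-stranded RNA, went from 3.82, 4.61 and 3.86 to 6.27 and 6.52, at least 2.29 ± 0.38 higher. LGALS3BP, a secreted glycoprotein, was 3.71-fold higher, from 7.74, 8.19 and 7.66 to 9.62 and 9.89.

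The membrane proteins IFITM1, IFITM2 and IFITM3, which block viral entry, are close copies whose probe sets may read more than 1 of them. IFITM3 read 9.50, 9.80 and 9.89 in TC-71 and 11.01 and 11.14 in TC/AEW, 2.55-fold higher, and IFITM1 and IFITM2 lay above TC-71 by 1.02 and 0.93. Not all of the list took part. The lowest differences were in CMPK2 (-0.27), EIF2AK2 (-0.14), IFIT5 (-0.12) and IRF1 (-0.02), and the sensor gene RIGI read 5.10 and 5.07 in TC/AEW within the TC-71 range of 4.75 to 5.32. The factor genes IRF7 and IRF9 differed by 0.45 and 0.26, and IRF9 overlapped. In TC/AVE and TC/CP the same list had medians of 0.34 and 0.46 against the same TC-71 samples, which all 3 comparisons share. HERC5 separated these lines, with 4.06 in TC/AVE and 7.68 in TC/CP, and the IFIT genes were higher in TC/CP than in TC/AEW (9.84 for IFIT2, 9.30 for IFIT1 and 9.07 for IFIT3).

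Promoters of 23 of the 29 genes were found in RefSeq (GRCh38.p14, 250 bases before to 50 after the gene start) and searched on both strands for the core of the response element, GAAANNGAA, where N is any base. The core was present in 18 of the 23, and in 8 of 8 promoters of genes that were at least 2-fold higher. Of all 35116 promoters of this length 8.11% hold it, and so do 8.27% of the 11312 tested genes with a promoter. A match is a description of the sequence and not a site shown to be bound. The list was built of known interferon targets, so the core is common in it whatever TC/AEW does. The promoters of HERC5, IFIH1, LGALS3BP, IFIT3 and IFIT1 are shown because, of the 2-fold higher genes of this list with a promoter in the table, these 5 had the largest gaps to TC-71. Each match on either strand is in capitals, and the bases read 5′ to 3′ on the strand of the gene. HERC5 lies at chr4:88456869-88457168 (plus strand), IFIH1 at chr2:162318635-162318934 (minus strand) and LGALS3BP at chr17:78979874-78980173 (minus strand). IFIT3 has 2 starts in the table, at chr10:89327747-89328046 (plus strand) and chr10:89332279-89332578 (plus strand), and IFIT1 lies at chr10:89392373-89392672 (plus strand).
HERC5: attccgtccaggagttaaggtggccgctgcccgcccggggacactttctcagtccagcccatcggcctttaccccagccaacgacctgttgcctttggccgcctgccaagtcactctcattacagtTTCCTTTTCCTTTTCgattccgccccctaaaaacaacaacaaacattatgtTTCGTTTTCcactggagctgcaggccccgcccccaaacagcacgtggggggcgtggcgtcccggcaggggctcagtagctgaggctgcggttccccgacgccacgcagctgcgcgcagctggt
IFIH1: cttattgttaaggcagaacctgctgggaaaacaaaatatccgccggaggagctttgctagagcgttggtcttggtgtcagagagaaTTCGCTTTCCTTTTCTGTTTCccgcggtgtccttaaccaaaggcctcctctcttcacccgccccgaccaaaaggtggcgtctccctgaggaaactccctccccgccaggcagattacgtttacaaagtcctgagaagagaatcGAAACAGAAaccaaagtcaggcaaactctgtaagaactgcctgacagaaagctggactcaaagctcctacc
LGALS3BP: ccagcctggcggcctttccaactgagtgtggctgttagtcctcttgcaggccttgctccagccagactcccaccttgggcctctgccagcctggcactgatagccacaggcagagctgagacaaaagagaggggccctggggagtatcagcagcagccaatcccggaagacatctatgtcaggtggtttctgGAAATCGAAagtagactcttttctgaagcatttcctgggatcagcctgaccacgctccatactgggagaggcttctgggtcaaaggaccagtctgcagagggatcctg
IFIT3 (upstream start): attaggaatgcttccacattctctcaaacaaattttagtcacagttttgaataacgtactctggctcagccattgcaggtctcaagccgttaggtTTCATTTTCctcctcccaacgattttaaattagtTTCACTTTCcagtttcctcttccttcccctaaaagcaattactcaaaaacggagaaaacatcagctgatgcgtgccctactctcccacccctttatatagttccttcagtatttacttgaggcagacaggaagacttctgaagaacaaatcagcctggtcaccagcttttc
IFIT3 (downstream start): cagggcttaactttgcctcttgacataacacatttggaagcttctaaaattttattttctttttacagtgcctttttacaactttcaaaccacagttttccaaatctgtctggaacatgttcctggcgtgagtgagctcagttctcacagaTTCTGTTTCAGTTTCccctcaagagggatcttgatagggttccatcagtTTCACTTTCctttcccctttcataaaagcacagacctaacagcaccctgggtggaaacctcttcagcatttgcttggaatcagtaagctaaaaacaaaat
IFIT1: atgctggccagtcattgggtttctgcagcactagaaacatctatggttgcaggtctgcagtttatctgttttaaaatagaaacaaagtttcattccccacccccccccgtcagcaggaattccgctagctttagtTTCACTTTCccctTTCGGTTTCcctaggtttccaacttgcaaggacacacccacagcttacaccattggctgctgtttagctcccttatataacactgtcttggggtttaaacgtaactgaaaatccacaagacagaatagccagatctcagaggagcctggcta

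In HERC5 the matches begin at positions -124, -118 and -73 from the gene start, and the first pair overlaps, as capitals in a single block show. IFIH1 holds matches at -164, -158, -152 and -21, of which the first 3 overlap. LGALS3BP holds a single match, at -58. In IFIT3 they begin at -155 and -121 from the upstream start and at -99, -93 and -50 from the downstream start, and in IFIT1 at -115 and -102.

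HLA class I genes, which present peptides to T cells and are also induced by interferons, lay on the same side. Of 16 genes for HLA class I and peptide loading, 11 were higher, 10 without overlap (15.3% of all genes) and 2 also 2-fold higher (1.64% of all genes). The median was 0.31 (0.27 from sample 2). HLA-C read 8.42, 8.63 and 8.53 in TC-71 and 10.21 and 10.24 in TC/AEW, 3.25-fold higher. HLA-B read 8.43, 9.10 and 8.73 against 10.27 and 10.20. TAP1, which pumps peptides into the endoplasmic reticulum, was 1.93-fold higher, and the light chain gene B2M was higher by 0.30. HLA genes are near-identical to each other, and the probe sets for HLA-B, HLA-C, HLA-F and HLA-G may share signal. Against the same TC-71 samples the list median was 0.62 in TC/AVE and 0.00 in TC/CP.

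**Figure D3:**
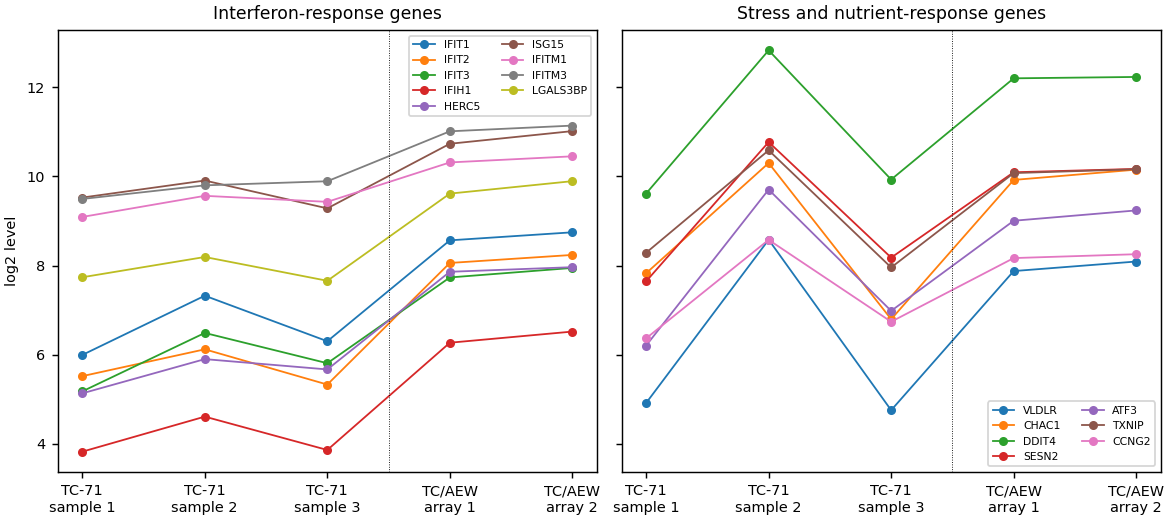
Log2 levels on the 3 TC-71 arrays and the 2 TC/AEW arrays for the 9 interferon-response genes that were at least 2-fold higher (left) and for 7 stress and nutrient genes chosen after their values were seen (right); lines only join the points of 1 gene, since samples have no order. On the left both TC/AEW arrays lie above all TC-71 samples, and on the right TC-71 sample 2 lies above both TC/AEW arrays.

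Genes of the amino acid and unfolded protein response show how far the choice of TC-71 sample matters. Some of them are induced by ATF4 when amino acids run short or proteins misfold. Of 35 genes, 25 were above the TC-71 mean, with a median of 0.20, but the median was -0.29 against TC-71 sample 2. DDIT4, which restrains mTOR complex 1 under stress, read 9.62, 12.83 and 9.93 in TC-71 and 12.20 and 12.23 in TC/AEW. VLDLR read 4.92, 8.58 and 4.75 against 7.88 and 8.09, and CHAC1, which degrades glutathione, read 7.83, 10.30 and 6.80 against 9.92 and 10.15. SESN2, a leucine sensor, read 7.65, 10.77 and 8.18 against 10.09 and 10.17. In each of these 4 genes sample 2 and TC/AEW were high and samples 1 and 3 low. Of the 35 genes, 3 lay above all TC-71 arrays (15.3% of all genes) and 2 below (14.3%). The 2-fold, non-overlapping rule was passed by 0 of them (1.64% of all genes higher and 0.487% lower). Without sample 2, 9 of the 35 passed as higher, against 421 of all 14181 genes. ATF3 and TXNIP followed the same pattern, with sample 2 at 9.71 and 10.59 and differences of TC/AEW from it of -0.58 and -0.47. The list median from the TC-71 mean was 0.35 in TC/AVE and -0.16 in TC/CP. Sample 2 has the year of TC/AEW and TC/AVE but not of TC/CP, and the part of that year in these values was not tested.

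Genes of lipid synthesis were mostly above the TC-71 mean and above TC-71 sample 2, while those of fatty acid oxidation were split. Of 17 genes for fatty acid oxidation, 8 were higher and 9 lower, with medians of -0.05 from the mean and -0.14 from sample 2. Of 22 genes for sterol synthesis and uptake, 18 were higher, 15 lay above without overlap (15.3% of all genes) and 2 below without overlap (14.3%), with medians of 0.31 from the TC-71 mean and 0.27 from sample 2. INSIG1, which holds the sterol sensor in the endoplasmic reticulum and is itself induced when sterols are low, read 9.40, 9.63 and 10.04 in TC-71 and 11.08 and 10.83 in TC/AEW, 2.41-fold higher. HMGCS1, which makes the precursor HMG-CoA, was 2.04-fold higher, at 9.77, 9.78 and 10.14 against 10.91 and 10.93. MSMO1 and STARD4, for demethylation and transport of sterols, were 1.82-fold and 1.73-fold higher. IDI1 and PMVK went the other way, by -0.59 and -0.31. All of INSIG1, HMGCS1, MSMO1 and STARD4 stood higher in TC/AVE than in TC/AEW. A sterol regulatory core, TCACNCCAC, was found in 1 of the 20 promoters of this list present in RefSeq (1.13% of all promoters hold it).

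Of 17 genes for fatty acid synthesis and desaturation, 15 were higher, 9 without overlap (15.3% of all genes), and 4 passed the 2-fold, non-overlapping rule (1.64% of all genes). These were elongases and acyl-CoA synthetases and not the synthase itself. ELOVL7 read 3.77, 3.63 and 4.08 in TC-71 and 5.62 and 5.47 in TC/AEW, and ELOVL2 read 4.16, 5.02 and 5.04 against 6.29 and 6.02. ELOVL7 was under 5 on all arrays except those of TC/AEW, so it passed the filter on low values only through them. ACSL1 and ACSL4, which activate long-chain fatty acids, were 2.39-fold and 2.06-fold above the TC-71 mean but only 0.86 and 0.56 above sample 2. FASN overlapped, with 11.68, 10.13 and 10.63 in TC-71 and 11.29 and 11.26 in TC/AEW. Among 15 scramblase and lipid transfer genes, 13 were higher. PNPLA3, a lipase of lipid droplets, read 6.41, 7.02 and 7.03 in TC-71 and 8.46 and 8.59 in TC/AEW, 3.26-fold higher, and GRAMD1C, a sterol transporter, went from 3.46, 4.19 and 3.79 to 5.62 and 5.46. PNPLA3 was as high in TC/CP (8.86) and TC/AVE (8.37).

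Immediate-early transcription factors, which act downstream of ERK, were all on the higher side by their means. Of 11 AP-1 and EGR factors, 11 were higher and 7 did not overlap (15.3% of all genes), with medians of 0.38 from the TC-71 mean and 0.45 from sample 2. JUN read 6.23, 6.79 and 6.31 in TC-71 and 7.28 and 7.42 in TC/AEW, 1.87-fold higher. MYC, used in this list as an early growth gene, read 12.37, 12.46 and 12.21 against 12.93 and 12.98. EGR1 was the only one to pass the 2-fold rule on the probe set used (1.64% of all genes). It read 8.99, 9.72 and 7.84 against 9.76 and 10.03, and lay only 0.18 above sample 2. Of the 2 other kept probe sets of EGR1, 0 passed, whereas 2 of the 3 others of JUN did. Of 19 genes of ERK feedback, ETV5 and IER3 passed above TC-71 (1.64% of all genes). ETV5 read 7.44, 9.37 and 8.51 in TC-71 and 9.92 and 9.83 in TC/AEW, only 0.50 above sample 2. Its 3 other kept probe sets were higher too, but 0 of them passed. IER3, an early survival gene, ranged from 6.70 to 7.50 in TC-71 and read 8.49 and 8.65 in TC/AEW, and DUSP6, the ERK phosphatase, differed by 0.85 ± 0.47 from the mean and 0.18 from sample 2.

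Targets of the fusion protein EWS-FLI1 were split in direction. FLI1, whose probe set may also read the fusion transcript, stood at 8.81, 8.81 and 9.49 in TC-71 and 9.20 and 9.03 in TC/AEW, and EWSR1 differed by -0.03. Of 31 genes activated by the fusion, 15 were higher and 16 lower, and the median was -0.02. Of these 31, 6 lay above all TC-71 arrays and 11 below them, against 15.3% and 14.3% of all genes. KCNE3 and LIPI, both Ewing markers, were the 2 that passed the 2-fold rule below TC-71 (0.487% of all genes), and 0 passed above it (1.64%). LIPI, a membrane-associated lipase, read 7.09, 6.48 and 7.45 in TC-71 and 5.77 and 5.86 in TC/AEW. BCL11B, a zinc finger factor, was the furthest above, at 9.68, 9.80 and 10.28 against 10.79 and 10.84, and the Notch-related HES6 was 1.78-fold higher. Of 18 genes repressed by the fusion, ITGA2 and CCN1 were 2-fold higher (1.64% of all genes) and S100A11 2-fold lower (0.487% of all genes). ITGA2, the collagen-binding integrin chain, read 4.47, 5.67 and 5.39 in TC-71 and 6.61 and 6.81 in TC/AEW. CCN1, a matricellular protein, read 6.22, 6.41 and 6.79 against 7.72 and 7.80.

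Histone and DNA methylation genes leaned below TC-71. Of 39 genes, 27 were lower, 14 without overlap (14.3% of all genes), and 2 were higher without overlap, but 0 reached 2-fold and the median was -0.19 from the TC-71 mean and -0.08 from sample 2. DNMT3A, a de novo DNA methyltransferase, was the furthest, at 8.53, 8.43 and 8.64 in TC-71 and 7.77 and 7.98 in TC/AEW. DNMT3B read 7.94, 7.85 and 7.90 against 7.49 and 7.59. TET2, which oxidises methylcytosine, was lower by 0.42, and EZH2, the methyltransferase of Polycomb complex 2, differed by -0.20.

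Single genes passed the 2-fold, non-overlapping rule in several other lists. Of all genes, 1.64% passed above TC-71 and 0.487% below. BOK, a BCL2 relative that promotes cell death, ranged from 8.29 to 9.65 in TC-71, with a mean of 7.25 over the TC/AEW arrays, 3.02-fold lower, and was as low in TC/AVE (7.46) and TC/CP (7.23). NQO1, a quinone reductase induced by oxidative stress, was 2.09-fold lower, from 9.70, 9.73 and 9.41 to 8.43 and 8.67. HEY1, a target of Notch, was 2.19-fold lower. ABCA5, a transporter of the ABC family, was 2.19-fold higher, with 7.70, 7.97 and 7.96 against 8.98 and 9.04. ABCA1, which exports cholesterol, went from 3.59, 4.68 and 4.39 to 5.49 and 5.68, and passed the filter on low values only through TC/AEW. ZEB1, a repressor of epithelial genes, was 2.48-fold higher, at 5.33, 5.81 and 5.28 against 6.59 and 6.98. SOX7 read 4.01, 4.26 and 4.39 in TC-71 and 5.94 and 5.67 in TC/AEW, and PDE4B, a cAMP phosphodiesterase, 4.46, 5.39 and 4.79 against 5.98 and 6.37. In the lists of HOX genes, cadherins, axon guidance, TGF-beta and BMP genes, and hypoxia response, 0 genes passed in either direction.

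**Figure D4:**
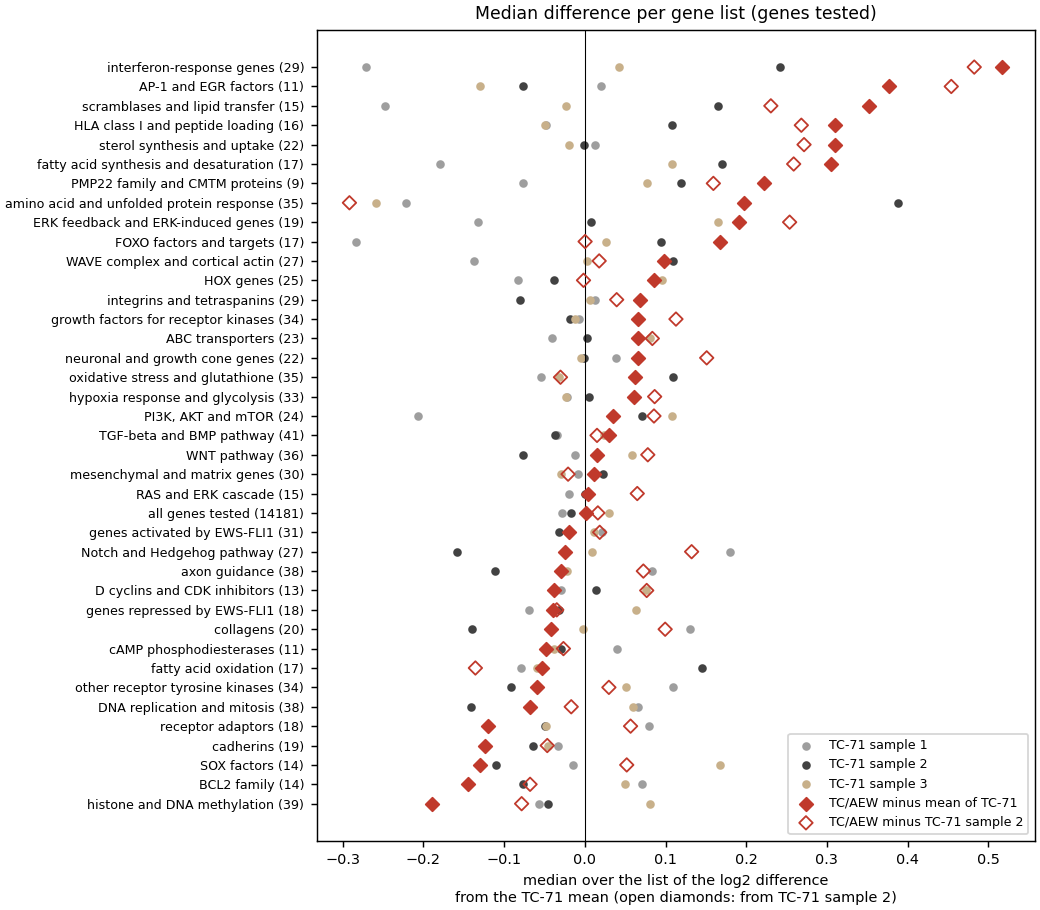
For each list of at least 9 tested genes, the median log2 difference of TC/AEW from the TC-71 mean (filled diamond), from TC-71 sample 2 (open diamond), and of each TC-71 sample from the TC-71 mean (circles). Interferon-response genes are furthest to the right at 0.52 and 0.48, while the list for amino acid stress and protein folding is at 0.20 from the mean but -0.29 from sample 2.

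In a run of neighbouring genes, most lay below TC-71 by a small amount. The run, from RFXAP to TDRD3 in the gene order of RefSeq, was picked out after its values were seen, and its edges were set by eye. It held 82 tested genes, of which 73 were lower and 9 higher, with a median of -0.43 from the TC-71 mean and -0.45 from sample 2. Single genes ranged from -1.11 in VPS36 to 0.59 in SIAH3. Towards the TDRD3 end the running median came to about -0.10, but its windows of 25 genes reached past the run there. The last 25 genes inside the run, from RCBTB1 to TDRD3, had a median of -0.40. Without overlap, 53 of them (64.6%) lay below TC-71, compared with 52 (30.1%) of the 173 other genes of the same chromosome and 14.3% of all genes. Only 2 reached the 2-fold rule. One was VPS36, a sorting protein of the ESCRT machinery, at 10.08, 9.80 and 10.12 in TC-71 and 8.88 and 8.91 in TC/AEW, and the other was RCBTB2. The housekeeping gene ESD read 12.35, 12.34 and 12.27 against 11.63 and 11.71, ITM2B 11.83, 11.88 and 11.84 against 11.39 and 11.41, and SMAD9 10.01, 10.06 and 10.07 against 9.09 and 9.16. These 3 genes had almost no spread in TC-71, and both TC/AEW arrays lay clearly below. In the TC-71 samples themselves the run stood at -0.10, 0.02 and 0.09 from their mean. TC/AVE and TC/CP, set against the same TC-71 samples, had medians of -0.31 and -0.32 in the run. Over the other genes of the same chromosome the medians were -0.11 in TC/AEW, -0.08 in TC/AVE and -0.22 in TC/CP. Runs elsewhere stood apart too, by medians over 25 neighbouring genes. The highest was 0.45 from SPSB4 to HPS3 (0.24 from sample 2), and the lowest -0.39 from TANGO6 to VAC14 (-0.20 from sample 2). Within the run the lowest was -0.58, from RFXAP to AKAP11 (-0.48 from sample 2). The arrays measured RNA only.

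**Figure D5:**
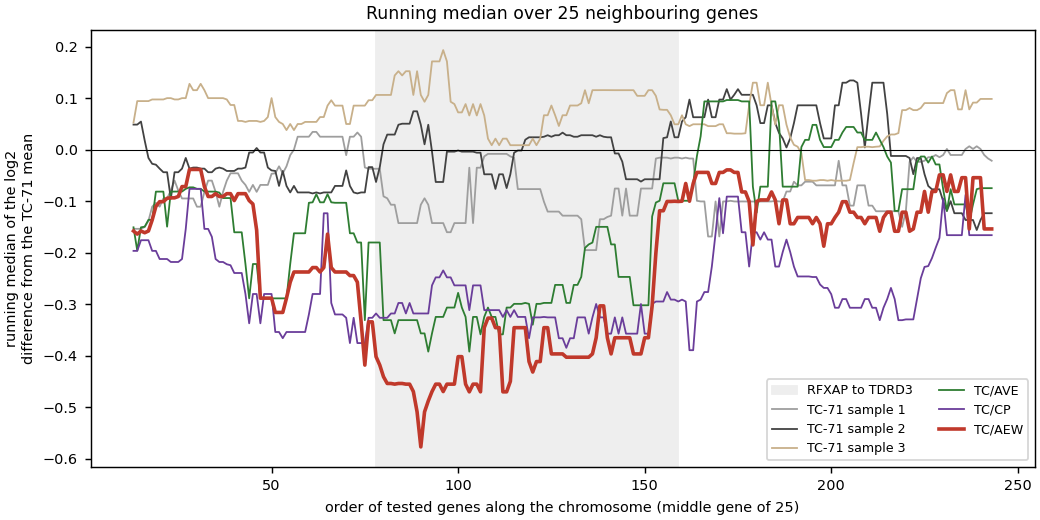
Running median of the log2 difference from the TC-71 mean over 25 neighbouring genes, in gene order along the chromosome that holds the run from RFXAP to TDRD3 (grey), for the 3 TC-71 samples and the means of the 3 selected lines. Within the grey run TC/AEW lies mostly below TC/AVE and TC/CP. It approaches the TC-71 samples at the right edge, where the windows of 25 genes reach past the run. TC/AVE touches TC-71 sample 1 in places. The medians over the run are -0.43 for TC/AEW, -0.31 for TC/AVE and -0.32 for TC/CP.

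Whether TC/AEW differed from the antibody-selected lines was tested directly, with the mean of TC/AVE and TC/CP as the other side. Of 14181 genes, 0 (0%) passed in limma, the lowest adjusted p was 0.686, and 263 had an unadjusted p under 0.05. The description above therefore gives levels in the 3 lines side by side, and no gene was shown to be particular to TC/AEW. By level, CCND2, HCLS1, WASF3, CD9, TTLL6 and ZNF667-AS1 were high on both TC/AEW arrays and near or below the TC-71 samples in both other lines. WASF3, CD9 and ZNF667-AS1 passed the filter on low values only through the TC/AEW arrays.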

How the data were processed

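The deposited values are log2 expression levels per probe set of 9 Affymetrix HG-U133 Plus 2 arrays, made by RMA with the tool affy per the submitters' processing notes (their versions are not given in the sources used here). RMA subtracts background, quantile-normalises all arrays together and compresses differences at low levels. From 2 µg of RNA per array, biotin-labelled target was made per the labels' protocols.

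Of 54613 probe sets without the 62 controls, 41091 carried 1 gene symbol by GEO's platform annotation, 1801 several and 11721 none. RefSeq (GRCh38.p14) held 41037 of the 41091, and 0 symbols changed. Probe sets at 5 or more on at least 2 of the 9 arrays were kept (26952), and each of 14181 genes was read by the kept set whose mean was highest, with _x_at sets only where no other existed. The 2 arrays of each selected line were averaged, giving 6 samples in 4 groups. limma 3.58.1 (R 4.3.3) was fitted with 2 residual and 3.00 prior degrees of freedom, as a two-sided test with Benjamini-Hochberg adjusted p-values over all genes. It was tested on simulated data. Precision is limited by the small number of arrays.

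Named genes were the 20 with the largest gap in each direction, a fixed set around the IGF pathway and up to 4 per list with the largest difference among members tested. Other genes named, including further list members and the run of neighbouring genes, were chosen after their values were seen. The members and the 45 lists were chosen with earlier results of these data known. Alternatives were other filters, probe set rules, normalization, each replicate left out, TC-71 sample 2 alone, and arrays as samples.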

Additional observations from a re-analysis of the deposited data

Results flagged for a closer look

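For 7 named genes the TC/AEW arrays lay on one side of all 3 TC-71 samples and both arrays of another line lay on the opposite side. These differences were not tested gene by gene beyond the limma comparison of TC/AEW with both antibody-selected lines averaged, which called 0 genes and had 263 at an unadjusted p under 0.05. CCND2, HCLS1, WASF3, HERC5 and ZNF667-AS1 were above TC-71 in TC/AEW and below it in TC/AVE, where the differences from the TC-71 mean were -0.74, -0.68, -0.38, -1.51 and -0.54. HCLS1, WASF3 and ZNF667-AS1 were near background in TC-71 and TC/AVE, where values have little order. GAP43 was below TC-71 in TC/AEW and above it in TC/CP (0.53). IGF1 was above TC-71 in TC/AEW and below it in TC/CP (-0.70) on the probe set used. Not all IGF1 probe sets had TC/AEW above TC-71. On another, TC/AEW read 6.19 and 6.25 against 6.36, 5.77 and 6.90.

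Probe sets outside the gene comparison were counted by the same 2-fold, non-overlapping rule. Among 4701 kept probe sets with no gene symbol, 32 were at least 2-fold higher in TC/AEW without overlap and 22 were lower. Among 1276 kept probe sets with several symbols, 16 were higher and 3 lower. Neither kind held a larger share than the genes compared, of which 1.64% were higher and 0.487% lower.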

How the results depend on the processing

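With all 9 arrays entered as samples, limma called 547 genes against TC-71 and 295 against the antibody-selected lines, in place of 0 and 0; that setting counts technical replicates as independent samples. Both counts stayed at 0 under every other alternative fitted. With TC-71 sample 2 alone as the reference, the counts of 232 higher and 69 lower genes became 149 and 127. At a 1.5-fold limit the counts were 699 higher, 377 lower and 1137 from sample 2. Leaving out 1 array at a time gave 157 to 421 higher and 59 to 127 lower genes. For the 40 genes with the largest gaps, 0 of 430 values under the alternatives changed sign and 23 moved by more than 1 SD of TC-71. These genes were chosen by their gaps beyond all TC-71 samples. Leaving out an array or using sample 2 alone could therefore not change their sign. The medians of 13 of 45 lists changed sign against sample 2 alone. No paired analysis was possible because the replicate numbers of TC/AEW mark technical replicates of 1 sample. The year in the array file names as a random block could not be fitted. Levels under 5 limit 40 of the higher and 14 of the lower genes to lower bounds.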

Other observations

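The genes named here lie outside the rule for named genes and were chosen after their values were seen. They are single genes, in none of the lists, and stand for no gene group. TRIM14, an adaptor of antiviral signalling, read 4.51, 5.88 and 5.09 in TC-71 and 7.17 and 7.20 in TC/AEW, 4.07-fold higher, and stood at 6.95 in TC/AVE and 7.54 in TC/CP. IFI16, a DNA sensor, was near background in TC-71 (3.80, 3.35 and 3.49) and in both antibody-selected lines, and read 5.63 and 5.22 in TC/AEW. MICB, a stress-induced ligand of the NKG2D receptor on natural killer cells, read 7.68, 7.80 and 8.58 in TC-71 and 9.28 and 9.32 in TC/AEW, 2.44-fold higher (1.51 from sample 2), and it was as high in TC/AVE (9.67) and TC/CP (9.50). ULBP2, another ligand of the same receptor, was 2.33-fold above the TC-71 mean but only 0.47 above sample 2. MLKL, the executioner of necroptosis, read 4.36, 4.26 and 5.68 in TC-71 and 6.48 and 6.81 in TC/AEW, and stood at 7.70 in TC/CP.

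DSP, which ties desmosomes to keratin filaments, read 5.06, 6.25 and 5.72 in TC-71 and 7.10 and 7.09 in TC/AEW. PKP2, a desmosomal plaque protein, read 4.93, 5.54 and 6.16 against 6.88 and 7.02. ETS2, a transcription factor of the same family as FLI1, read 7.59, 7.14 and 8.05 in TC-71 and 9.17 and 9.38 in TC/AEW, 3.21-fold higher (2.13 from sample 2), against 8.37 in TC/AVE and 8.26 in TC/CP. Among the lower genes, NOS1, the neuronal nitric oxide synthase, had a TC-71 mean of 7.25 ± 0.31 (SD, n = 3) and read 6.03 and 6.10 in TC/AEW, while it was above TC-71 in TC/AVE (8.81) and TC/CP (8.13). RGS4, which limits signalling by G proteins, read 6.80, 8.18 and 7.23 against 5.87 and 6.21, and stood at 11.04 in TC/CP. None of these genes passed limma's test, which called 0 genes (501 at an unadjusted p under 0.05).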
